A study of Drosophila melanogaster with 3 samples.

Results

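Distal intergenic peaks of Plzf were described here. They are the irreproducible discovery rate (IDR) peaks, on the dm6 assembly, whose summit lay in no annotated gene and more than 5000 bp from the nearest transcription start site (TSS) of any transcript. Transposable elements were left out of the annotation. Of 7096 IDR peaks, 434 met this rule (6.12%, Wilson 95% interval 5.58 to 6.70). The comparison set was the 1959 regions of the same location in the authors' pooled list that overlapped no IDR peak. Other IDR peaks are set beside them: 1124 deep intronic peaks, in introns and more than 5000 bp from a TSS, and 815 near intergenic peaks, over 500 and up to 5000 bp from a TSS.

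The study is chromatin immunoprecipitation followed by sequencing (ChIP-seq) of whole Drosophila melanogaster prepupae, males and females together, of unknown age. The animals came from a transgenic line with stable expression of Plzf, which CG6792 encodes, fused at its C terminus to GFP. The precipitation used an anti-GFP antibody, although the antibody label names CG6792. There is 1 group of 3 biological replicates and no second condition, so every contrast is between regions, and every p-value is across regions and not across animals. A whole animal mixes many cell types, so a signal shared by all cells and a strong signal in few cells cannot be told apart. The number of reads per replicate is unknown from these lists.

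Plzf belongs to the family of BTB zinc finger proteins, in which the BTB domain joins proteins to one another and the zinc fingers can contact DNA. Intergenic DNA far from promoters holds many of the enhancers that switch developmental genes on in particular tissues. Around the prepupal stage, pulses of the steroid hormone ecdysone drive metamorphosis, when larval tissues die and imaginal discs form the adult body.

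The 101 bp centred on the summit are printed for 8 of the 10 strongest of these peaks and for the 3 strongest comparison regions. They show the base composition of these windows. All are the plus strand of dm6, read from the RefSeq genome, and capitals mark runs of 6 or more A or T bases.
Peak near pxb, chr3R:15651930-15652030: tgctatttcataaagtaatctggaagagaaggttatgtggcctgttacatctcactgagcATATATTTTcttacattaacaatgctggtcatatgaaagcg
Peak near tRNA Ile-TAT-1-2, chr3L:781290-781390: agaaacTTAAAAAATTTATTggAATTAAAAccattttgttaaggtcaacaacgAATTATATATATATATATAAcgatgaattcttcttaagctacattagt
Peak near lncRNA CR45411, chr3L:724668-724768: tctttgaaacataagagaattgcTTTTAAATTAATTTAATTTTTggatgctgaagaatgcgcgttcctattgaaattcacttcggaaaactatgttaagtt
Peak near spel1, chr2L:14370076-14370176: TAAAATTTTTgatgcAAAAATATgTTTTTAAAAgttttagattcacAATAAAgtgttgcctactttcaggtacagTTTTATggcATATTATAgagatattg
Peak near hid, chr3L:18190621-18190721: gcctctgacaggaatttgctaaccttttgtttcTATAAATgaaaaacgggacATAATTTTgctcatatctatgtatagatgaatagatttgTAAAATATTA
Peak between NijA and CG43245, chr3L:10760308-10760408: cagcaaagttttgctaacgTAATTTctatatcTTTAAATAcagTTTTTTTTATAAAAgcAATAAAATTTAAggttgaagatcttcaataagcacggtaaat
Peak near Tollo, chr3L:15260715-15260815: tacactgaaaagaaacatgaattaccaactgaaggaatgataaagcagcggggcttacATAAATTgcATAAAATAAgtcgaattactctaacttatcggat
Peak near tRNA Ile-TAT-1-1, chr3L:762494-762594: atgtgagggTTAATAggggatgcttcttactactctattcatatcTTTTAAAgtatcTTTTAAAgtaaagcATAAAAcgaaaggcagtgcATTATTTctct
Comparison region 1, chr3L:11262301-11262401: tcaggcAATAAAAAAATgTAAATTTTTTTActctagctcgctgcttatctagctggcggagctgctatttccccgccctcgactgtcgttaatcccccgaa
Comparison region 2, chr3R:31285904-31286004: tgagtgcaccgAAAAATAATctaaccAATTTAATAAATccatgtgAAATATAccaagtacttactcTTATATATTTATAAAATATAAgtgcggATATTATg
Comparison region 3, chr2L:1632811-1632911: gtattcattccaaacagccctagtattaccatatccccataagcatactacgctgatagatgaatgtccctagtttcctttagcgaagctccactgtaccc
The 8 peak windows held 1 to 6 such runs each, covering between 9 and 47 of the bases. The comparison windows ranged from no run at all to 5 runs covering 56 bases, so single windows of the 2 sets overlapped.

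The strongest distal peak lay far above the rest. It spanned chr2R:13035069-13035590, between Su(z)2, a Polycomb group gene, and CG13323. It lay downstream of Su(z)2 (end at 13007911) and nearer to CG13323 (closer end at 13044695). Its signal, taken here as the peak height given by the authors' caller on the scale of each list, was 759 in replicate 1, 1016 in replicate 2, 700 in replicate 3 and 2462 in the pooled list. It ranked 5, 4 and 5 among all regions of replicates 1, 2 and 3. Its pooled signal was 3.21 times that of the next peak. The neighbouring Polycomb group gene Psc, chosen here after its values were seen, also had a distal peak on 1 side, at chr2R:12959349-12959626, where replicates 1, 2 and 3 gave 143, 219 and 155 of signal.

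The next 11 peaks fell in a narrow range, from 571 to 767 in the pooled list. The peak at chr3R:15651766-15652185, 14203 bp upstream of pxb, had signals of 220, 372 and 188 in replicates 1, 2 and 3. The peak at chr3L:781152-781539, beyond the transfer RNA gene tRNA:Ile-TAT-1-2, had 206, 330 and 206. Each of these replicate values was highest in replicate 2, as were those of 368 of the 434 peaks, but the scale of each list is its own and the values are not comparable between replicates. The other strong peaks lay near the noncoding RNA gene lncRNA:CR45411 (710), the nuclear lamina gene Ote (701), in the gap between the mismatch repair gene spel1 and the ion channel gene ppk (685) and CG18404 (571), in pooled signal. Between NijA and CG43245 there were 2 of them (654 and 582). All 12 strongest peaks had a summit within 100 bp among the 7096 strongest regions of each replicate. Among them the GC content of the summit window ran from 21.8% to 47.5%.

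**Figure D1:**
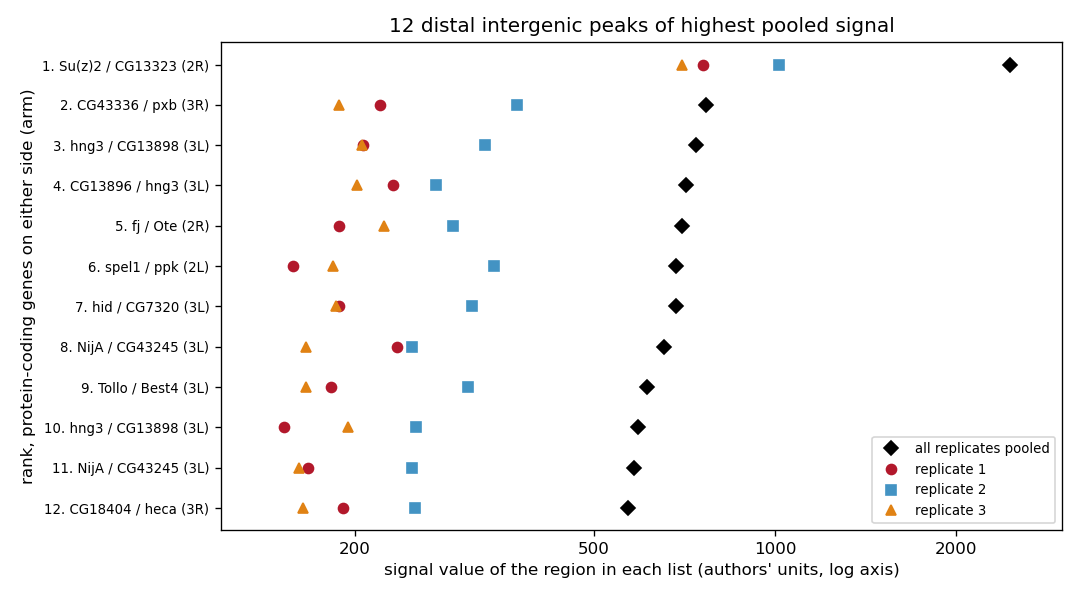
Signal of the 12 strongest distal peaks in each replicate (circles, squares and triangles) and in the pooled list (diamonds), on a log axis in the authors' units; rows give the protein-coding genes on either side and the arm. The peak between Su(z)2 and CG13323 stands apart at 2462 in the pooled list, and the other 11 lie between 571 and 767.

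Peaks near genes of the ecdysone response included 1 of the strongest. A gene is said here to flank a region when it is the nearest protein-coding gene on 1 side, whatever its distance and whatever noncoding genes lie between. The gene hid promotes cell death and is used in the removal of larval tissues. The peak 5030 bp upstream of it, at chr3L:18190486-18190852, had signals of 188, 313 and 186 in replicates 1, 2 and 3 and 684 in the pooled list. Its summit window held 28.7% GC and its flanking window 58.4%. Eip93F, an ecdysone-induced transcription factor of metamorphosis, had 7 distal peaks and 9 comparison regions between it and Qsox2. The strongest, 7591 bp upstream of Eip93F, reached 170, 206 and 137 in replicates 1 to 3. The cell death gene rpr flanked 2 weak peaks (130 and 80.2 in the pooled list) and 12 comparison regions. Eip75B, an ecdysone-induced nuclear receptor gene, flanked 1 peak (97.5) and 3 comparison regions. The rpr peak of 130 and the Eip75B peak were chosen after their values were seen. In all, 14 distal peaks (3.23%, Wilson 1.93 to 5.34) were flanked by a gene of the 43 on the ecdysone list, against 37 comparison regions (1.89%, 1.37 to 2.59). Of all 1412 gaps between genes that hold distal sequence, 17 (1.20%) were flanked by such a gene. The intervals of the 2 shares overlap, and 7 of the 14 peaks share 1 gap.

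The peaks beside some other developmental genes are given with the number of comparison regions beside the same genes, without a test. The gene hry, which encodes the pair-rule repressor Hairy, flanked 10 peaks, with pooled signals of 87.0 to 417, and 22 comparison regions. Of the 10 peaks, 8 were matched in all 3 replicates. The Wnt ligand genes wg, Wnt6 and Wnt10 flanked 6 peaks and 18 comparison regions. The strongest of these peaks (554), a single peak between Wnt6 and Wnt10 chosen after its values were seen, had replicate signals of 143, 266 and 141. The Hedgehog ligand gene hh flanked 3 peaks (140 to 253), all matched in the 3 replicates, and 1 comparison region. The BMP ligand gene dpp flanked 4 peaks (88.5 to 281) and 2 comparison regions, and vn, a ligand gene of the EGF receptor, 4 peaks (85.8 to 222) and 4 comparison regions. The head patterning gene ems flanked 8 peaks (81.1 to 258) and 12 comparison regions. The nuclear receptor gene tll, also on the ecdysone list, flanked 3 peaks (131 to 171) and 3 comparison regions. Tollo, a Toll family receptor gene, flanked 11 peaks (82.0 to 612) and 26 comparison regions. Chosen after their values were seen, ptc, the Hedgehog receptor gene, flanked 2 peaks (431 and 387) and 3 comparison regions, and the glypican gene dally 2 peaks (496 and 89.5) and 4 comparison regions. The dally peaks are 2 summits in 1 interval, and their replicate 1 values are the same region.

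The other gene lists were counted in the same way, without a test. A gene of the list of 142 developmental transcription factors flanked 88 peaks (20.3%, 16.8 to 24.3) and 429 comparison regions (21.9%, 20.1 to 23.8), while 9.92% of all gaps had such a neighbour. The strongest of these peaks lay between ppk and elB (550), with replicate signals of 121, 278 and 152, and between bab1 and bab2 (337), with 96.3, 126 and 113. Neuronal cell surface genes flanked 24 peaks (5.53%, 3.74 to 8.10), against 190 comparison regions (9.70%, 8.47 to 11.1) and 8.50% of gaps. Tollo alone accounted for 11 of the 24 peaks. Their strongest peaks were those beside Tollo (612) and beside 18w, another Toll family gene (374). Chemoreceptor genes flanked 5 peaks (1.15%, 0.493 to 2.67), against 66 comparison regions (3.37%, 2.66 to 4.26) and 3.68% of gaps, and the intervals of the first 2 shares overlap. The strongest lay between the gustatory receptor genes Gr93a and Gr93b (360), with replicate signals of 120, 146 and 91.6. Next was a peak (205) in the gap between lncRNA:CR46006 and lncRNA:CR45245. The odorant receptor gene Or67d, its nearest protein-coding gene on 1 side, lay 106734 bp away.

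For the noncoding RNA lists, the nearest genes of any kind were used. Long noncoding RNA genes flanked 227 peaks (52.3%, 47.6 to 57.0), against 1056 comparison regions (53.9%, 51.7 to 56.1) and 39.8% of gaps. Transfer RNA genes flanked 14 peaks (3.23%, 1.93 to 5.34), against 43 comparison regions (2.20%, 1.63 to 2.94) and 1.91% of gaps. Of the 14 peaks, 6 lay in the gap between tRNA:Ile-TAT-1-2 and CG13898, and 2 between hng3 and tRNA:Ile-TAT-1-1. The 2 strongest (740 and 592) lay in these gaps, 10878 and 6959 bp from the tRNA:Ile-TAT gene. Cuticle protein genes, whose products build the exoskeleton, flanked 2 peaks (89.6 beside Cpr51A and 80.9 beside Cpr35B), against 11 comparison regions and 0.921% of gaps. Heat shock genes and microRNA genes flanked none of the 434 peaks (upper Wilson limit 0.877%), against 0 and 5 comparison regions. Heat shock genes flanked only 2 of the 1412 gaps (0.142%) and microRNA genes 6 (0.425%). No p-value was attached to any list, because peaks that share a gap share its genes.

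The peaks were unevenly spread over the gaps. Of the 1412 gaps with distal sequence, 214 held a peak: 120 held 1, 47 held 2, and 47 held 3 or more. The last 47 gaps accounted for 220 of the 434 peaks. The gap of 75047 bp between NijA, which encodes a Ninjurin cell adhesion protein, and CG43245 held 17 peaks with a median signal of 121, beside 29 comparison regions with a median of 28.2. The peaks in it fell into a group of 6 near NijA and a group of 11 beyond it. The gap between Aps and lncRNA:CR45248 followed with 10 peaks. Linking peaks that lay within 10000 bp of the next gave 48 groups of 3 or more, with 206 peaks. Neighbouring summits in the same gap lay a median of 2153 bp apart, and the 434 peaks formed 417 separate intervals.

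**Figure D2:**
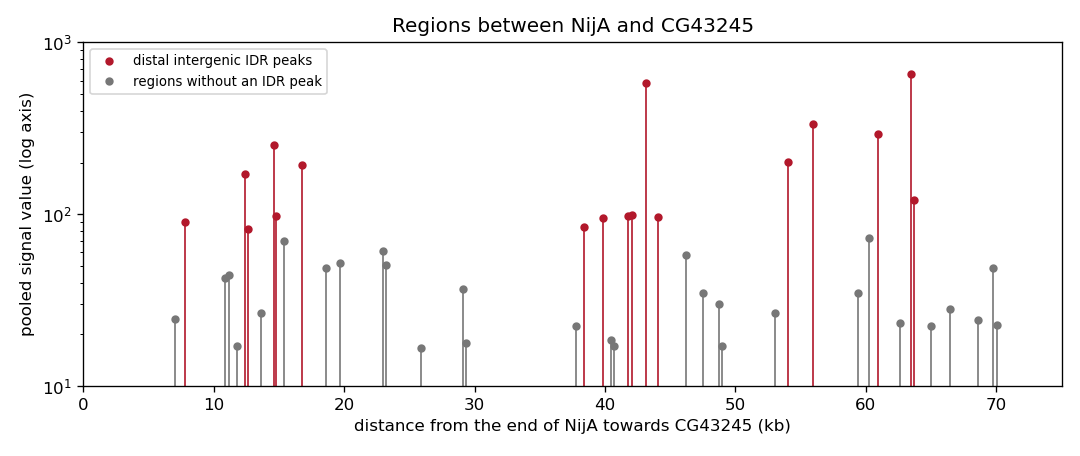
Pooled signal (log axis) of the 17 distal peaks and the 29 comparison regions between NijA and CG43245, by distance from the end of NijA in kb. The peaks form 2 groups, and the strongest, at 654 and 582, lie 63.5 and 43.2 kb from NijA.

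Peak density was lower in larger gaps and farther from a TSS, and so was the density of comparison regions. In gaps of up to 20000 bp there were 44.2 peaks per Mb of distal sequence and 179 comparison regions. In gaps of 20000 to 40000 bp there were 29.7 peaks and 154 comparison regions per Mb, and in gaps of 40000 to 80000 bp 21.4 and 92.4. Peaks made up 19.8%, 16.1% and 18.8% of both sets together in these 3 sizes of gap. The 35 gaps above 80000 bp held 9 peaks, or 1.64 per Mb, and 27 comparison regions. By distance, 286 peaks lay 5000 to 10000 bp from a TSS (39.9 per Mb), 115 lay 10000 to 20000 bp away (23.04 per Mb) and 33 farther (4.26 per Mb). The 3 farthest lay 39402 and 39188 bp from CG43335 and 36673 bp from CG43245, with pooled signals of 117, 91.8 and 83.9. The summit was upstream of its nearest TSS in 51.8% of peaks and in 48.4% of comparison regions.

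Neither threshold of the rule fell in a break of the data. The 3 peaks just beyond 5000 bp lay 5007, 5013 and 5027 bp from a TSS and had signals of 80.2, 180 and 148. The 3 intergenic IDR peaks just short of it lay 4998, 4997 and 4995 bp away and had 139, 82.0 and 210. The weakest distal peaks had signals of 80.5, 80.2 and 80.1, and the strongest comparison regions 79.6, 79.3 and 78.8.

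Distal intergenic locations were less frequent among IDR peaks than among the other pooled regions. They made up 6.12% of the 7096 IDR peaks and 9.26% of the 21147 other regions (odds ratio 0.638, 95% interval 0.573 to 0.711, 2-sided Fisher's exact test across regions p = 1.98e-17). Within the replicates, the share was 5.82% ± 0.0896 in the 7096 strongest regions and 8.67% ± 0.615 in the rest (SD, n = 3). Deep intronic locations had an odds ratio of 0.723 (0.672 to 0.776) on the same contrast. With all IDR peaks in 4 equal bins of signal, from strongest to weakest, the distal share was 4.23%, 6.65%, 6.26% and 7.33%.

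The signal of distal peaks was close to that of deep intronic ones. Distal peaks had a median pooled signal of 134 (80.1 to 2462) and deep intronic peaks one of 136. The difference in mean log2 signal was -0.03 (95% interval -0.11 to 0.06), and within the replicates it averaged -0.02 ± 0.02 (SD, n = 3). Against near intergenic peaks the difference was -0.08 (-0.18 to 0.01). Against all 2066 intergenic peaks within 5000 bp of a TSS, promoter-proximal ones included, it was -0.19 (-0.28 to -0.11).

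Replicates held most of the distal peaks. A summit within 100 bp was found among the 7096 strongest regions of all 3 replicates for 261 of 434 peaks (60.1%, 55.5 to 64.6), for 60.1% of deep intronic peaks and for none of the 1959 comparison regions. The pool contains these replicates, and the IDR choice itself rests on agreement between replicates. The rule therefore sets peaks and comparison regions apart here, and nothing is read from that. In the same 4 bins of signal, from strongest to weakest, 98.7%, 90.7%, 59.5% and 10.8% of distal peaks were matched in all 3 replicates. A match needs a strong region in each replicate, so a decline with pooled signal is built into the measure. The other IDR peaks gave 97.8%, 87.7%, 54.9% and 8.33%. A region of any strength overlapped 433, 433 and 434 of the 434 peaks in replicates 1, 2 and 3, with median signals of 39.7, 61.3 and 36.4 on each list's own scale. The median distance between the pooled and the replicate summit was 24, 16 and 27 bp. Spearman's rho of the signal between pairs of replicates across peaks was 0.731, 0.723 and 0.746, a description over regions that share libraries.

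**Figure D3:**
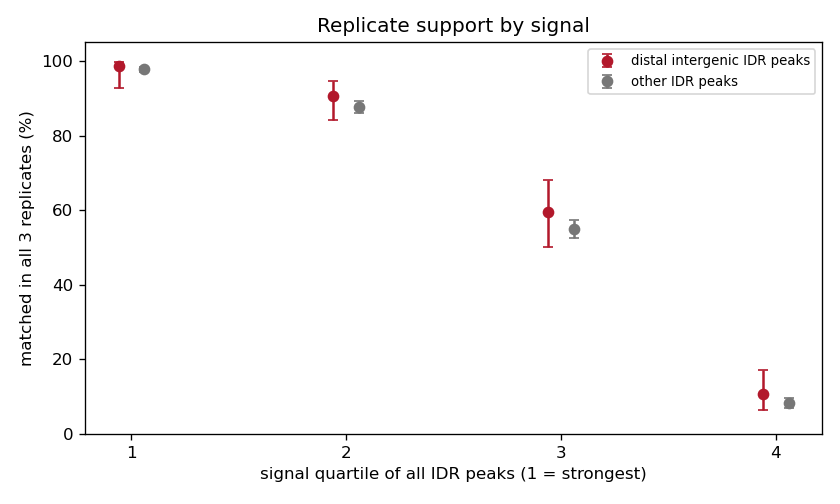
Share of distal peaks (left point of each pair) and of other IDR peaks matched in all 3 replicates, by quartile of signal of all IDR peaks, with Wilson 95% intervals. Both classes drop from above 97% in the strongest bin to 10.8% and 8.33% in the weakest.

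The X chromosome held few distal peaks. By arm, 89 lay on 2L, 60 on 2R, 147 on 3L, 104 on 3R, 34 on X and 0 on chromosome 4. The X held 7.83% of distal peaks and 13.5% of comparison regions (odds ratio 0.546, 0.376 to 0.793, 2-sided Fisher's exact test, Benjamini-Hochberg adjusted over 6 arms, p = 0.00571). Of deep intronic peaks, 23.5% lay on the X (odds ratio 0.277, 0.190 to 0.403, adjusted Fisher's exact p = 3.93e-13). Within the replicates the X held 7.59% ± 0.418 of distal regions among the strongest 7096 and 12.5% ± 0.933 among the rest (SD, n = 3). Arm 3L, by contrast, held 33.9% of distal peaks and 18.9% of deep intronic peaks (odds ratio 2.20, adjusted Fisher's exact p = 2.4e-09). Against comparison regions, 30.6% of which were on 3L, that difference did not pass (adjusted Fisher's exact p = 0.395). These tests by arm take each peak as independent, although peaks that share a gap are not. How much deep intronic sequence each arm holds was not computed. The contrasts with deep intronic peaks therefore cannot tell peak placement apart from where such sequence lies. Over all distal sequence there were 11.9 peaks per Mb on X, against 28.6 on 2L, 13.1 on 2R, 26.9 on 3L and 27.6 on 3R, so X and 2R lay close together. In the gaps of up to 80000 bp alone, a division made after the values were seen, distal sequence held 17.4 peaks per Mb on X, against 34.0 on 2L, 23.2 on 2R, 44.9 on 3L and 36.0 on 3R. The comparison regions numbered 92.4 per Mb of all distal sequence on X, against 132, 58.3, 109.8 and 109.7 on 2L, 2R, 3L and 3R. In these gaps they numbered 135 per Mb on X, against 157, 102, 183 and 148 on the same arms. On X, 8 of the 34 peaks lay in the single gap between lncRNA:CR44499 and rux, a cell cycle inhibitor gene. The animals were of both sexes, and the number of X copies in the sample was not tested against these shares.

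**Figure D4:**
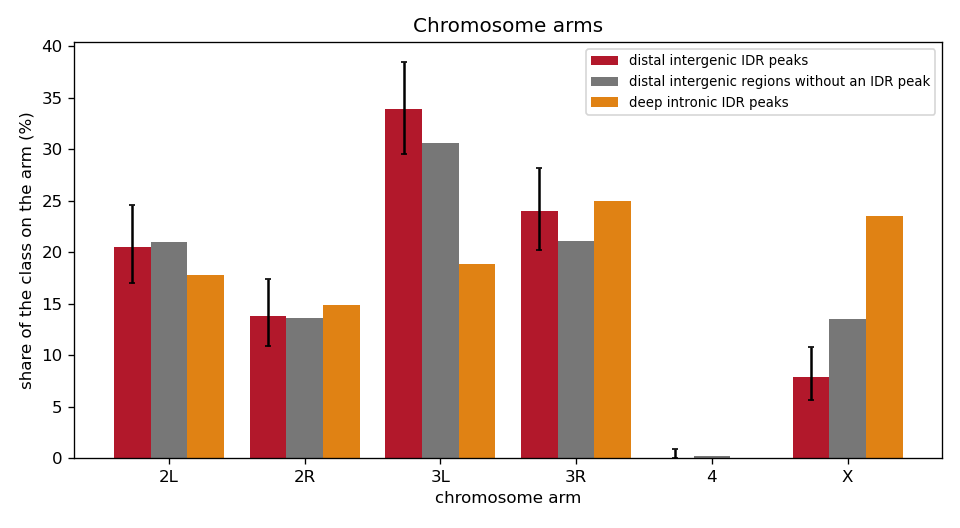
Share of each class on each chromosome arm, with Wilson 95% intervals on the distal peaks, for distal peaks, comparison regions and deep intronic peaks from left to right. The X holds 7.83% of distal peaks, 13.5% of comparison regions and 23.5% of deep intronic peaks.

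Distal peaks had GC-poor summits. The 101-bp summit window held 30.9% ± 0.362 GC (SE, n = 434 regions), against 38.3% in comparison regions, a difference of -7.38 percentage points (95% interval -8.22 to -6.53). In the replicates' own lists the difference was -7.50 ± 0.587 points (SD, n = 3). The comparison regions all had lower pooled signal than the peaks. In their strongest, middle and weakest of 3 equal bins of signal, the summit window held 34.6%, 39.3% and 40.99% GC. In the strongest and weakest bins of distal peaks it held 30.5% and 31.2%. Against comparison regions of above-median signal only, the difference was -5.09 points (-6.03 to -4.15). How far signal accounts for the difference was not tested. All 183888 distal windows without a pooled region averaged 40.9%. With 3 replicates the smallest p of an exact 2-sided sign test is 0.25, so no p is given.

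The low GC was centred on the summit, with flanks of higher GC content. A window centred 300 bp away at higher coordinates held 48.1% GC in distal peaks and 44.8% in comparison regions. GC was therefore lower at the summit by 17.2 ± 0.580 points in distal peaks (SE), in 401 of 434 of them, and by 6.47 points in comparison regions. The dip of the mean profile was 140 bp wide midway between its lowest point and its surroundings. It was also 140 bp wide in comparison regions and near intergenic peaks, and 120 bp wide in deep intronic peaks. The fall from flank to summit was larger than in deep intronic peaks, where it was 13.6 points, by 3.56 points (2.22 to 4.90). It was also larger than in near intergenic peaks, by 3.09 points (1.61 to 4.56). In the replicates' own lists, the excess over deep intronic regions was 3.39, 4.49 and 1.96 points, and that over the near intergenic regions was 3.39, 3.33 and 1.71 points. At the summit itself distal and deep intronic peaks differed by -1.30 points (-2.14 to -0.47), and by -0.999 ± 0.870 points within the replicates (SD, n = 3). How the yield of sequencing depends on GC was not tested.

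**Figure D5:**
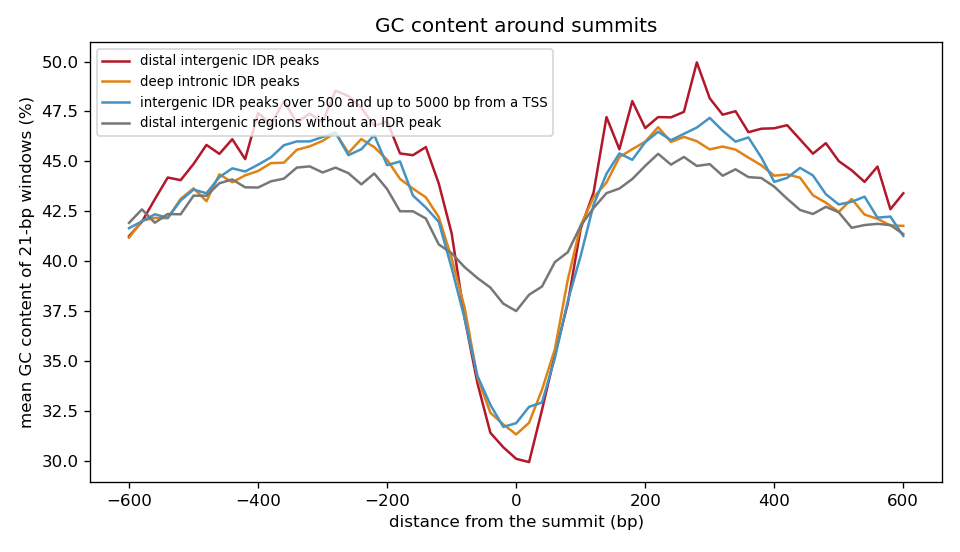
Mean GC content in windows of 21 bp by distance from the summit, for distal peaks, deep intronic peaks, near intergenic peaks and comparison regions. Distal peaks have the lowest value of the 4 classes, 29.9%, beside a mean of 45.5% at 300 bp or more from the summit.

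AT-rich words occurred more often at distal peaks than at comparison regions. Of 37 motifs searched on both strands of the 101-bp window, 2 were more frequent in distal peaks (5.41% of motifs) and 0 were less frequent (0%), by 2-sided Fisher's exact tests with Benjamini-Hochberg adjustment at 0.05. There were 9 with an unadjusted p under 0.05. The TATA box letters TATAAA, a core promoter element, occurred in 121 of 434 peaks (27.9%) and 16.5% of comparison regions (adjusted Fisher's exact p = 4.74e-06). They occurred in 12.1% of all distal windows. In the replicates' own lists the shares were 26.2% ± 0.599 and 15.6% ± 1.62 (SD, n = 3). The letters TAATATA occurred in 10.8% of peaks, 5.41% of comparison regions and 3.21% of all distal windows (adjusted Fisher's exact p = 0.00152). This 7-mer and TCTTAAA had led an earlier search of all peaks of the same data, so their excess is not independent evidence. A window can hold TATAAA and TAATATA in overlapping letters, and every TATTTATA holds TATAAA on the other strand.

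With the windows stratified by GC content in bins of 5 points (Cochran-Mantel-Haenszel test), none of the 37 motifs passed, and the smallest adjusted p was 0.182. The odds ratio of TATAAA was then 1.15 and that of TAATATA 1.19. The GATA site AGATAA (8.53% and 6.07%, in 5.92% of all distal windows) and the GAGA element GAGAG (8.99% and 10.7%, in 11.5%) did not pass either test. The share with TATAAA was 27.6%, 25.7% and 30.3% in the strongest, middle and weakest of 3 equal bins of distal peaks.

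Against their own flanks, distal summits differed in 12 motifs by exact McNemar tests with Benjamini-Hochberg adjustment, 9 more frequent (24.3% of motifs) and 3 less frequent (8.11%). TATAAA was present at 27.9% of summits and in 6.68% of flank windows (adjusted exact p = 1.34e-14), TAATATA in 10.8% and 0.461% (adjusted exact p = 8.06e-11), and TCTTAAA in 6.91% and 1.15% (adjusted exact p = 0.000101). TAATATA and TCTTAAA, both among the 9, came from the earlier search of these data, so their excess is not independent evidence here either. The homeodomain core TAATTA, in 6.89% of all distal windows, occurred in 11.5% and 4.61%, and the forkhead site TAAACA, in 9.53% of them, in 11.8% and 6.22%. The others were the Mef2 core TATTTATA (4.38% and 1.15%) and the STAT letters TTCNNNGAA (3.92% and 0.691%). With them came the repeats ATATATAT (2.76% and 0.461%) and AATAAATA (6.22% and 2.53%). These 4 occurred in 1.77%, 3.04%, 1.38% and 3.12% of all distal windows. In comparison regions TAAACA occurred in 11.6%, and the 4 in 3.16%, 2.76%, 3.01% and 4.44%. None of these, nor TAATTA, passed against comparison regions. The flanks held 48.1% GC and were not matched to the summits in GC. Less frequent at the summit were the GC box GGGCGG (0.691% and 9.68%), the E-box CANNTG (31.1% and 42.9%) and the Pho letters GCCAT (12.2% and 19.1%). These 3 occurred in 2.65%, 35.6% and 18.7% of all distal windows.

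No motif passed the test between distal peaks and the IDR peaks most like them. Against deep intronic peaks 0 of 37 were higher (0%) and 0 lower (0%) by Fisher's exact tests, with 3 at an unadjusted p under 0.05. TATAAA occurred in 27.9% of distal and 20.7% of deep intronic peaks (adjusted Fisher's exact p = 0.111). Against near intergenic peaks, 0 were higher (0%) and 0 lower (0%), again with 3 at an unadjusted p under 0.05, and TATAAA occurred in 27.9% and 22.0%.

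A search over all 2080 6-mers, with both strands merged, gave the same separation by base composition. Against comparison regions 99 were more frequent (4.76%) and 96 less frequent (4.62%) by Fisher's exact tests. The 99 held a median of 1 G or C, and the 96 a median of 4. The largest differences were for AATATA (31.8% of distal peaks and 17.7% of comparison regions), AAATAT (40.1% and 26.2%), TTAAAA (35.7% and 23.3%) and ATATAA (26.7% and 15.1%). On the other side were GCCAAA (4.61% and 9.60%), GTGCAA (3.23% and 7.91%), CAACAA (5.07% and 9.75%) and CAGCCA (1.84% and 6.43%). None passed in GC bins, where the smallest adjusted value of the Cochran-Mantel-Haenszel test was 0.111. Against flanks, 312 were more frequent (15%) and 497 less frequent (23.9%) by exact McNemar tests. Against deep intronic peaks 0 were higher (0%) and 0 lower (0%), with 103 at an unadjusted Fisher's exact p under 0.05.

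Few distal peaks lay in annotated transposons, as was so for comparison regions. The summit fell in an annotated transposable element in 1 of 434 peaks (0.230%, 0.0407 to 1.29), in 0.306% of comparison regions and over 14.3% of the distal sequence. At least 50% of the summit window was soft-masked as repeat in 9.68% of peaks and 9.39% of comparison regions (odds ratio 1.03, 0.726 to 1.47). The longest run of A and T bases in the window had a median of 10 bp in distal peaks, 9 bp in comparison regions and 8 bp in all distal windows.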

How the data were processed

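Per the file headers, the authors deposited regions in narrowPeak form: peaks and background for each of 3 replicates and for the pool, as IDR input, and the optimal IDR-thresholded peaks. For the aligner, caller and IDR cut-off, nothing is stated in the labels or headers. The deposited signal was taken as a peak height, which is an assumption, and it was compared only within a list. Sequencing depth is unknown, and Wilson 95% intervals cover the counting of regions only. Only dm6 lists were used. Each replicate list and the pooled list held 30000 regions, and the optimal IDR list 7096. In the count of distal shares, 6 mitochondrial regions of replicate 2 were left out, which left 7090 of its 7096 strongest regions.

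Summits were annotated with Ensembl release 115 genes. Summit windows of 101 bp and flanks centred 300 bp away were read from the RefSeq genome of dm6. Shares were compared with Fisher's exact tests and Woolf intervals, summits with flanks by exact McNemar tests, all adjusted by the Benjamini-Hochberg method at 0.05. Analyses ran in Python 3.11.15 with SciPy 1.17.1, and the tests across motifs and 6-mers were tested on simulated data. Overlapping peaks and peaks that share a gap are not independent.

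Peaks named are the 12 strongest, the 3 farthest from a TSS, those at the thresholds, some of the 48 groups of 3 or more, and the 2 strongest per gene list. The groups named lie mostly beside known developmental genes, so they do not represent the 48. Others of similar size went unnamed, such as 6 peaks between CG44623 and CG8654 and 5 between CG15258 and lncRNA:CR44859. Peaks named outside this rule are marked in the text as chosen after their values were seen. The peaks, motifs and gene lists were chosen with earlier results of these data known. The account of gaps, distances, repeats, runs of A and T, and the motif tests against other IDR peaks were added after the files were seen.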

Additional observations from a re-analysis of the deposited data

How the results depend on the processing

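No paired analysis was possible because there is only 1 group, so replicate numbers pair no samples across groups; summits and their own flanks were compared within regions. Of 95 recomputed values, 63 gave the same call or stayed near the reported value. All alternatives did so for the distal odds ratio (0.529 to 0.685), the X odds ratio (0.393 to 0.613), the GC difference (-8.01 to -5.09 points) and the GC fall (13.6 to 18.7 points). The signal difference from deep intronic peaks passed only with a TSS distance of 2000 bp (-0.0687). Except for replicate support, the alternatives without 1 replicate kept only those pooled IDR peaks that were matched in the other replicates. The pooled list, made from all 3 replicates, was not remade, and the comparison regions stayed the same. These alternatives therefore select better-supported peaks, and whether the results hold without the reads of a replicate was not tested.

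Replicate support was 93.8% among IDR peaks of above-median signal, 67.7% with 1 bp of overlap, 51.8% with 50% reciprocal overlap and 90.3% with all regions of each replicate. It was 66.8% to 72.4% leaving out each replicate in turn, since 2 lists then had to match.

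The counts of sequences moved most. Motifs called against comparison regions numbered 9 at a TSS distance of 2000 bp, 0 at 10000 bp, 7 with protein-coding genes only, 1 among above-median IDR peaks, 0 in windows of 25 bp per side, 6 with 100 bp, 1 against above-median comparison regions and 0 in GC bins. Without 1 replicate, that is among the pooled peaks matched in the other replicates, they numbered 2 to 4 (4 without replicate 3). Motifs called against flanks numbered 4 at 10000 bp, 4 among above-median peaks, 4 with 25 bp per side, and 5 to 7 without 1 replicate (7, 7 and 5 without replicates 1, 2 and 3). The 6-mers called against comparison regions numbered 547 at 2000 bp, 1 at 10000 bp, 458 with protein-coding genes only, 19 among above-median peaks, 23 with 25 bp per side, 10 against above-median comparison regions and 0 in GC bins, and 98 to 141 without 1 replicate (126 without replicate 1, 98 without replicate 2). The set at 10000 bp had 148 peaks and the above-median set 193, against 434, so fewer regions were tested. The sets without replicates 1, 2 and 3, filtered in this way from the 434, had 291, 290 and 314 peaks. Their comparison set was still the 1959 regions. There were more peaks at 2000 bp (821) and with protein-coding genes only (762). The above-median comparison set had 979 regions, against 1959. How far the size of the sets accounts for these changes was not tested. Neither was the cause of the other changes, where the sets were the same.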

Other observations

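The genes on either side of a distal peak were divergent, with both transcribed away from the gap, for 103 of 434 peaks (23.7%, Wilson 19.97 to 28.0) and 388 of 1959 comparison regions (19.8%, 18.1 to 21.6). Convergent genes flanked 124 peaks (28.6%, 24.5 to 33.0) and 641 comparison regions (32.7%, 30.7 to 34.8). Of the gaps themselves, 18.8% of divergent, 16.7% of tandem and 11.5% of convergent ones held a distal peak. The difference was not tested, since peaks in 1 gap share its genes.

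The authors' regions had a width of 440 bp in 298 of the 434 peaks (68.7%), with a median pooled signal of 110. The others were 110 to 522 bp wide and had a median signal of 254.

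The fall in GC content toward the summit was 19.1, 16.2 and 16.2 points in the strongest, middle and weakest of 3 equal bins of distal peaks, and 11.5, 5.43 and 2.53 points in the 3 bins of comparison regions.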
